A study of Mus musculus with 8 samples.

Results

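The 41 genes described here are 39 nuclear receptor genes of the mouse other than the liver X receptors (LXR), and the 2 genes of the PGC-1 coactivators that dock on such receptors. They were chosen by name, with earlier results of these data known, and all 41 were found among the 25050 named genes of the array. Each gene was read from 1 probe set, the one with the highest mean over the 8 arrays. The LXR genes, the retinoid X receptor genes, Esr1, Pgr and Nr1h5 are not among the 41. The samples were mammary epithelial cells of wild-type FVB females in a first pregnancy or lactation, hybridised to 8 Affymetrix whole-transcript arrays. Pregnancy day 14, before copious milk secretion, was represented by 4 arrays, and lactation day 4, after secretory activation, by the other 4. Both groups were prepared by an enzymatic digestion meant to deplete adipocytes, and none of the 8 samples was labelled with a drug, ligand or mutant allele. The labels do not say that each array came from a separate mother, so the p-values measure the spread between these arrays, which may be technical.

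Nuclear receptors are transcription factors with a zinc finger domain that binds DNA and a ligand-binding pocket that takes up small lipophilic molecules. Steroids, thyroid hormone, retinoic acid, calcitriol, bile acids, fatty acids and heme are among their ligands, while several members are orphans with no settled ligand. Many bind as dimers with a retinoid X receptor to repeats of a short half-site, and they recruit coactivators or corepressors according to whether the ligand is bound. In the mammary gland, glucocorticoid acts with prolactin on milk protein genes, vitamin D signalling bears on calcium handling, and the PPAR group is known for its control of fatty acid use and storage.

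Values are the authors' GC-RMA values on a log2 scale, so a difference of 1 is a 2-fold change, and they ran from 2.04 to 13.03 over all probe sets. Levels of different probe sets were not compared. As a guide to background, 95% of the 1206 olfactory receptor genes, which the gland is not known to use, had a mean below 4.64, and 15 of the 41 genes lay at or below that value. The olfactory genes themselves leaned upward in lactation, with a median change of 0.07. Of them, 108 (8.96%) were called higher and 5 lower (limma, adjusted p under 0.05), so small rises in that range may not be particular to a receptor gene. Markers of fibroblasts fell in 7 of 11 cases, those of T cells in 8 of 9 and those of macrophages in 4 of 11, against 16.1% of all genes. B and plasma cell markers, at 1 of 8, and nerve and glial markers, at 1 of 6, were near that share. None of these 5 lists held a gene rising at an adjusted or an unadjusted p under 0.05 in limma. The fibroblast count was 3 without lactation replicate 1 or 2, 4 without pregnancy replicate 4, 2 without pregnancy replicate 1 or 3 and 1 without pregnancy replicate 2. The T cell count was 4 without lactation replicate 2 and 5 without lactation replicate 4 or pregnancy replicate 1, and the B and plasma cell count was 6 without pregnancy replicate 4. The mean of the fibroblast markers ran from 7.74 to 8.55 in pregnancy and 6.21 to 7.50 in lactation, that of the macrophage markers from 7.40 to 7.85 in pregnancy and 6.25 to 7.34 in lactation, and that of the T cell markers from 5.72 to 7.23 in pregnancy and 4.82 to 5.55 in lactation. Endothelial markers (7.60 to 8.34 in pregnancy and 7.13 to 8.53 in lactation) and those of smooth muscle and pericytes gave no call among 10 and 6 genes in limma, with 1 of each list at an unadjusted p under 0.05. Adipocyte markers rose in 2 of 11 cases and differed more within a stage than between stages (5.98 to 7.50 in pregnancy and 6.81 to 7.80 in lactation). Among epithelial markers, luminal genes rose in 3 and fell in 6 of 12 cases. The rises were those of the milk protein genes Csn2 and Wap and of Elf5. The falls were those of Krt8, Krt18, Krt19, Cldn3, Cldn4 and Kit. The luminal mean ran from 10.11 to 10.29 in pregnancy and 9.38 to 9.47 in lactation, without overlap. Hormone-sensing luminal genes split 3 against 3 of 9, and basal genes 1 against 1 of 10. In such mixtures, fewer cells of a type and less RNA per cell cannot be told apart.

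At lactation day 4, 8 of the 41 genes were higher and 7 were lower than at pregnancy day 14 (limma, adjusted p under 0.05 over all genes tested), and 26 were not called, of which 5 had an unadjusted p under 0.05. The rises were those of Rora, Vdr, Thrb, Nr3c1, Ppara, Esrrg, Esr2 and Rorb, and the falls those of Nr2c1, Rarg, Ppargc1a, Nr4a1, Thra, Nr2c2 and Nr2f6. The called share was 36.6%, against 25.8% of all genes, with 19.5% higher against 9.73% and 17.1% lower against 16.1%. The shares of all genes, 9.73% higher and 16.1% lower, are also the measure for the counts of each family and list below. All 4 arrays of one stage lay above those of the other for 16 of the 41 genes (39.0%, against 29.6% of all genes), namely the 15 called ones and Nr1i2. Changes were moderate: only Rora and Nr2c1 passed 2-fold, 4.88% of the group against 3.29% of all genes, and the median log2 fold change was 0.06, against 0.01 for all genes. The calls of 9 genes (Rora, Vdr, Thrb, Nr3c1, Ppara, Esr2, Nr2c1, Rarg and Ppargc1a) held under each alternative run that tested them, and those of the other 6 ended under some. Leaving out 1 array gave 3 lower genes without lactation replicate 2, pregnancy replicate 2 or pregnancy replicate 4, and 4 without pregnancy replicate 1 or 3. How the calls divided between rises and falls depended on the scaling, going from 8 higher and 7 lower to 8 and 3 after quantile normalization, 10 and 5 with arrays centred on their median and 10 and 4 centred on the reference genes. Of all calls, 62.3% were lower as deposited, against 53.2%, 47.1% and 48.1% under these. The reference genes were not a fixed anchor: as deposited, 2 of the 14 were called higher and 6 lower, with a median change of -0.20. Centring on the median of the brighter 60% of genes, which moved the median change of all genes from 0.01 to 0.19, gave 20 higher and 3 lower, with 18.0% of all calls lower.

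**Figure D1:**
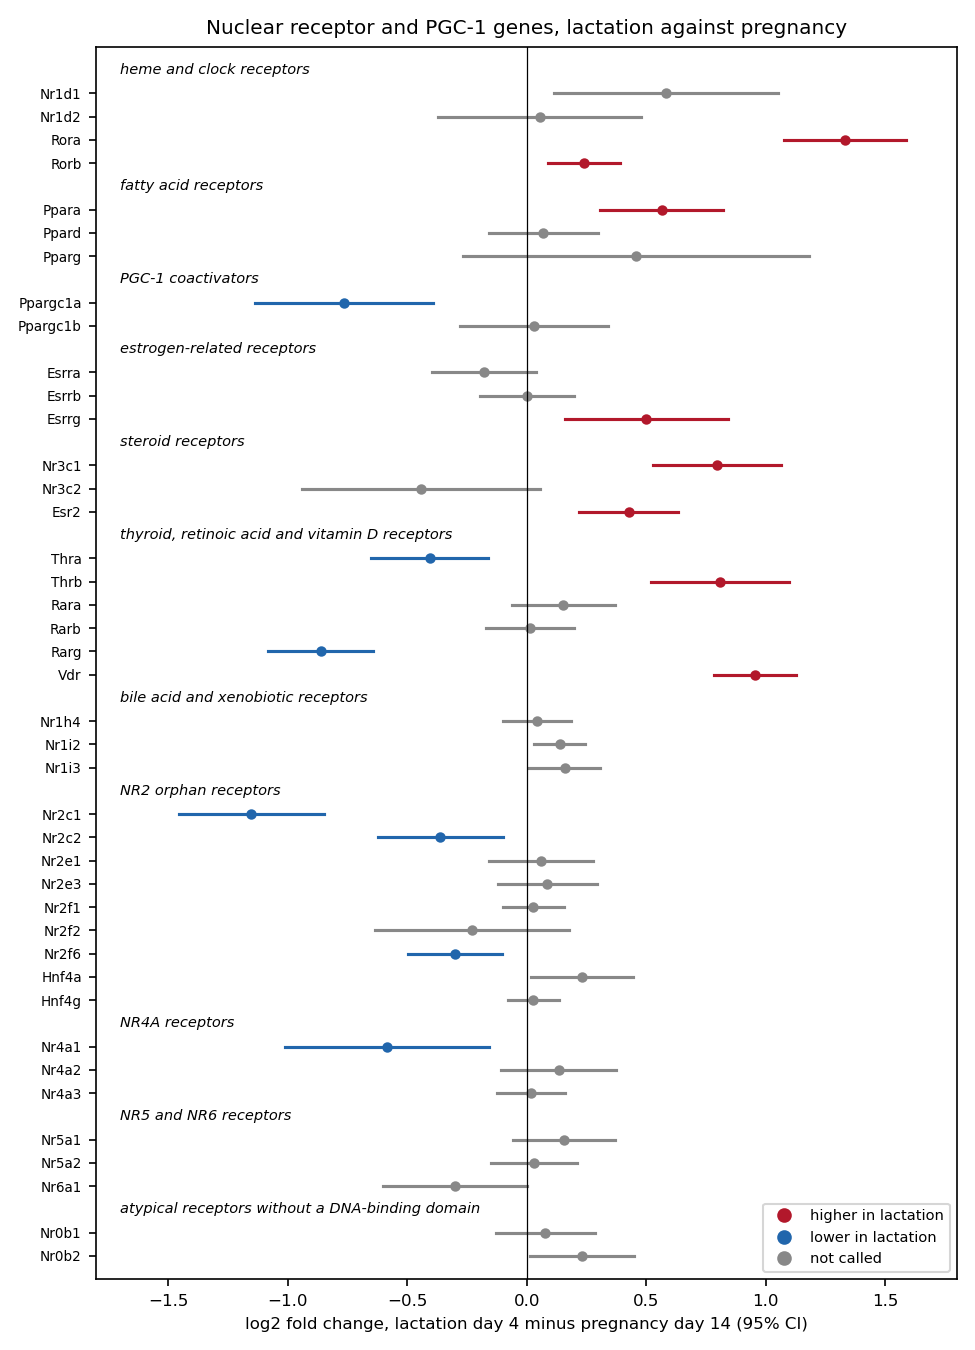
Log2 fold change of each of the 41 genes, lactation day 4 minus pregnancy day 14 (x axis), grouped by role, with points for the estimate and bars for the 95% confidence interval from limma. Red marks the 8 genes called higher, blue the 7 called lower and grey the 26 not called; Rora at 1.33 and Nr2c1 at -1.15 lie farthest from 0.

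Rora, encoding ROR alpha, a receptor that binds a monomeric site and activates clock genes such as Arntl, rose most. Its log2 values were 7.53, 7.61, 7.59 and 7.76 on the pregnancy arrays and 8.63, 9.11, 9.04 and 9.05 on the lactation arrays. The 4 lactation arrays all lay above the 4 pregnancy arrays, with the first lactation replicate lowest of its group. It rose from 7.62 ± 0.10 to 8.95 ± 0.22 (SD, n = 4 per stage), 2.52-fold, a log2 difference of 1.33 ± 0.114 (standard error; limma adjusted p = 4.6e-05). Rorb, known from brain and retina, rose by 0.24 (limma adjusted p = 0.0276), but its levels of 4.12 to 4.46 lay within the range of the olfactory receptor genes, of which 62 of 1206 had a change at least as large. Its call ended under 8 of 18 alternatives, among them quantile normalization and each one without a given array except lactation replicate 4, at adjusted p-values up to 0.0744.

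The REV-ERB receptors bind the same element as the ROR proteins and repress from it, with heme as ligand. Nr1d1, for REV-ERB alpha, had log2 values of 8.27, 8.46, 8.45 and 8.01 on the pregnancy arrays and 8.55, 9.37, 9.18 and 8.42 on the lactation arrays. The ranges of the stages overlapped, with lactation replicates 2 and 3 well above the other 6 arrays, and the difference of 0.58 (95% interval 0.12 to 1.05, limma adjusted p = 0.0663) missed the threshold. It passed with lactation replicate 4 left out (limma adjusted p = 0.0276) and under 3 of the other 18 alternatives. Nr1d2, for REV-ERB beta, was at 7.97, 8.03, 8.18 and 7.79 on the pregnancy arrays and 7.44, 8.06, 8.42 and 8.26 on the lactation arrays, with lactation values on both sides of the pregnancy range and a difference of 0.05 (95% interval -0.37 to 0.48, limma adjusted p = 0.852). Among 15 clock genes known as targets or partners of these receptors, 2 rose and none fell (median 0.29), with 3 and 1 at an unadjusted p under 0.05 in limma. Hlf, a clock output factor, rose by 0.76 (limma adjusted p = 0.000879) and Clock itself by 0.36 (limma adjusted p = 0.0187), while Arntl had a change of 0.15 (limma adjusted p = 0.607). The mean of the list was 6.22, 6.35, 6.36 and 6.68 on the pregnancy arrays and 6.25, 6.55, 6.90 and 6.65 on the lactation arrays, and the stages overlapped. Quantile normalization gave 4 higher genes in this list, leaving out pregnancy replicate 1 or 2 gave 1, and the call of Clock was lost under 2 of 19 alternatives. The hour at which tissue was taken is not given in the sources used here.

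Ppara, the fatty acid receptor that drives fat oxidation genes in liver, rose. It stood at 5.14, 5.39, 5.26 and 5.35 on the pregnancy arrays and 5.66, 6.12, 5.91 and 5.71 on the lactation arrays, without overlap. It rose from 5.29 ± 0.11 to 5.85 ± 0.21, 1.48-fold, a log2 difference of 0.56 ± 0.116 (standard error; limma adjusted p = 0.00632). Ppard, a broadly expressed relative, had overlapping values and a difference of 0.07 (95% interval -0.16 to 0.30, limma adjusted p = 0.639). Pparg, the regulator of fat storage genes and of adipocytes, varied widely at 7.30, 7.80, 7.99 and 6.71 on the pregnancy arrays and 8.44, 7.11, 7.86 and 8.22 on the lactation arrays. Its difference of 0.46 (95% interval -0.27 to 1.18, limma adjusted p = 0.319) was within that spread. The adipocyte markers, a list that does not hold Pparg, had means of 7.03, 7.33, 7.50 and 5.98 in pregnancy and 7.80, 6.98, 7.20 and 6.81 in lactation, and the array lowest for Pparg, pregnancy replicate 4, was also the lowest for these markers, while lactation replicate 1 was highest for both. The part of adipocyte RNA in the values of Pparg was not tested.

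Known target genes of PPAR alpha and delta fell in 16 of 27 cases and rose in 1, with a median log2 fold change of -0.67, against 0.01 for all genes. Without the dimmest 40% of genes, the medians were -0.78 and -0.10. Acot1, an acyl-CoA thioesterase, changed by -3.47 (limma adjusted p = 2.42e-06), Acadl, an acyl-CoA dehydrogenase, by -2.22 (limma adjusted p = 5.87e-05), and Angptl4, a secreted inhibitor of lipoprotein lipase, by -1.84 (limma adjusted p = 0.00189). Cyp4a10, a fatty acid hydroxylase, rose by 0.66 (limma adjusted p = 0.023), from a level in the background range, and its call ended under 3 of 18 alternatives. Probe sets of Acot1 and Acot2 can share signal, since the genes are near-identical. The mean level of the list was 7.35 to 7.56 in pregnancy and 6.65 to 6.71 in lactation, without overlap, while the receptor gene Ppara was higher in lactation. Among 15 PPAR gamma targets 3 rose and 1 fell (median 0.07). Cidea, a lipid droplet protein, rose by 3.51, Lpl, lipoprotein lipase, by 1.31 and the fatty acid carrier Cd36 by 0.96, and Cebpa, a transcription factor of fat and liver, fell by 0.76 (limma adjusted p = 8.87e-09, 1.1e-05, 0.00188 and 0.00189). Of that list, 7 genes are adipocyte markers too, among them Adipoq, at 0.07 (limma adjusted p = 0.918). Without pregnancy replicate 4, the array lowest for adipocyte markers, 4 of the list were called higher and 3 lower.

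Ppargc1a, encoding the coactivator PGC-1 alpha, which raises mitochondrial and oxidative genes together with PPAR and estrogen-related receptors, fell. Its values were 5.41, 4.81, 5.39 and 5.51 on the pregnancy arrays and 4.69, 4.70, 4.50 and 4.18 on the lactation arrays. The stages did not overlap, although pregnancy replicate 2 lay only 0.11 above the highest lactation array. The fall from 5.28 ± 0.32 to 4.52 ± 0.24 was a log2 difference of -0.76 ± 0.167 (standard error; limma adjusted p = 0.00858). The lactation mean lay in the background range, under 4.64, so no fold is given. A second probe set of the gene was in that range at both stages. Ppargc1b, for the related PGC-1 beta, had a difference of 0.03 (95% interval -0.28 to 0.34, limma adjusted p = 0.887). Among the estrogen-related receptors, orphans that bind an extended half-site and control energy metabolism, Esrrg rose by 0.50 (limma adjusted p = 0.0374), from values of 5.46, 5.23, 5.48 and 5.40 to 6.01, 5.54, 5.72 and 6.29. Its call ended under 6 of 19 alternatives, without lactation replicate 1 or 4 or any 1 of the pregnancy arrays, at adjusted p-values up to 0.0953. Esrra, with values of 6.45 to 6.72 in pregnancy and 6.29 to 6.55 in lactation, had a difference of -0.18 (95% interval -0.40 to 0.04, limma adjusted p = 0.196). Esrrb, known from embryonic stem cells, lay in the background range at 0.00 (95% interval -0.20 to 0.20, limma adjusted p = 0.997). Of 19 known ERR and PGC-1 targets measured, 5 rose and 3 fell, with a median of 0.01 and a mean of -0.07, of opposite sign. This list shares 3 genes, Acadm, Cpt1b and Pdk4, with the PPAR alpha and delta targets. The angiogenic factor Vegfa rose by 0.61, and Acadm, of fatty acid oxidation, and Tfam, which maintains mitochondrial DNA, changed by -0.67 and -0.44 (limma adjusted p = 0.00826, 0.000575 and 0.00879).

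Nr3c1, the glucocorticoid receptor gene, rose in lactation. Its log2 values were 7.95, 8.15, 8.20 and 8.35 on the pregnancy arrays and 8.65, 9.08, 9.10 and 8.99 on the lactation arrays, and every lactation array was above every pregnancy array. The change from 8.16 ± 0.16 to 8.96 ± 0.21 was 1.74-fold, a log2 difference of 0.80 ± 0.12 (standard error; limma adjusted p = 0.00121). Nr3c2, for the mineralocorticoid receptor, which also binds glucocorticoids, was at 5.44, 5.47, 5.71 and 6.47 on the pregnancy arrays and 5.03, 5.24, 5.67 and 5.38 on the lactation arrays. Pregnancy replicate 4 stood highest and the stages overlapped, with a difference of -0.44 (95% interval -0.94 to 0.05, limma adjusted p = 0.168). Of the known targets of the 2 receptors, 2 of 19 rose and 4 fell, near the shares of all genes, 9.73% higher and 16.1% lower. Their median was 0.08 and their mean -0.09, of opposite sign. Without lactation replicate 3 or pregnancy replicate 4, 4 were called higher. Cebpd, a transcription factor, rose by 0.92 (limma adjusted p = 0.0147) and Klf9, a Krüppel-like factor also on the thyroid hormone list, by 0.63 (limma adjusted p = 0.00612). The metallothionein genes Mt2 and Mt1, which also respond to zinc, fell by 3.65 and 1.03 (limma adjusted p = 2.11e-05 and 0.000575), and Nfkbia, an inhibitor of NF-kappa-B, by 0.97 (limma adjusted p = 0.00163). Fkbp5 and Tsc22d3, which respond strongly to glucocorticoid in many cells, had changes of 0.08 (limma adjusted p = 0.794) and -0.03 (limma adjusted p = 0.91). Esr2, for estrogen receptor beta, was called higher, from 3.70 ± 0.15 to 4.12 ± 0.14, a log2 difference of 0.43 ± 0.0922 (standard error; limma adjusted p = 0.00824). Its arrays, at 3.90, 3.67, 3.56 and 3.66 and 4.26, 4.21, 4.10 and 3.93, did not overlap between stages but lay in the background range, where 8 of the 1206 olfactory receptor genes changed by as much.

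**Figure D2:**
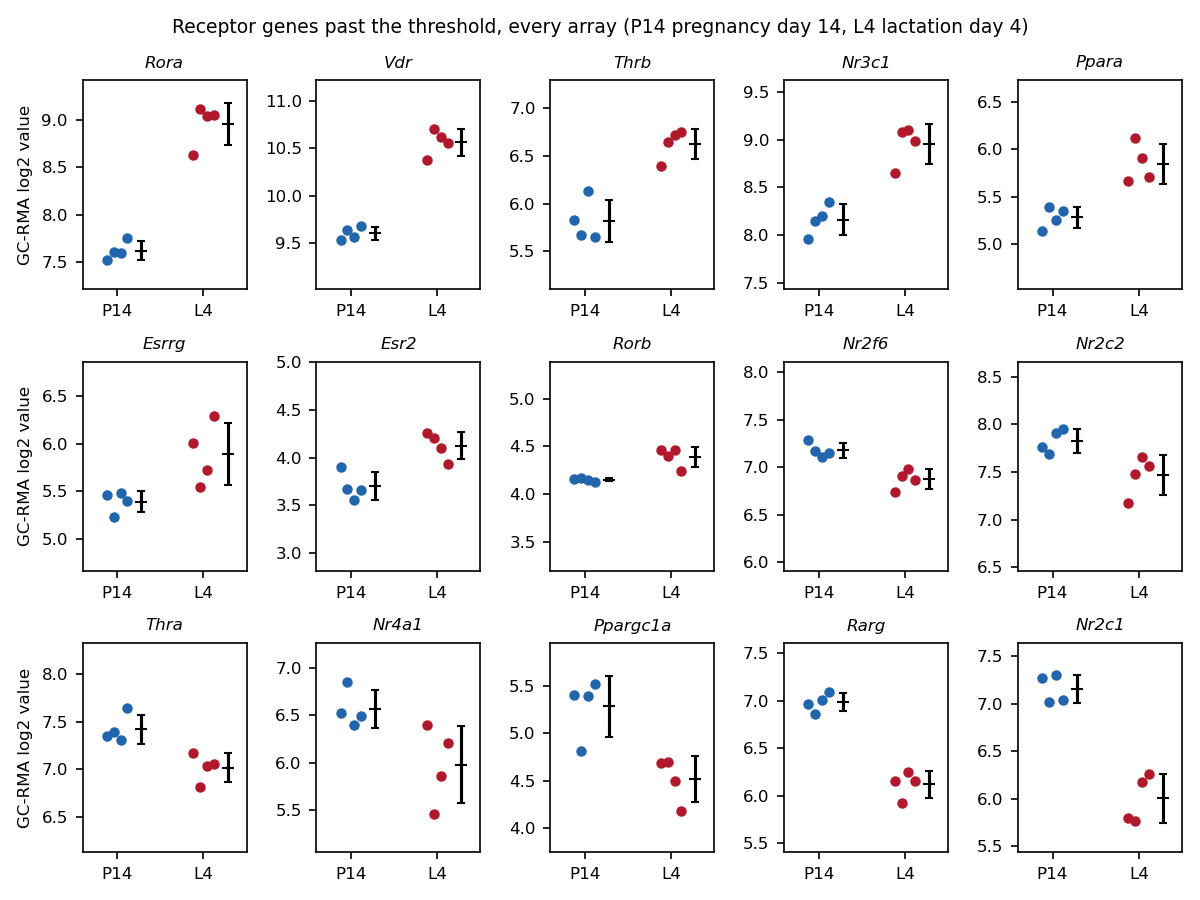
GC-RMA log2 value of the 15 called genes on every array, in order of their log2 fold change, with pregnancy day 14 in blue and lactation day 4 in red. Each point is 1 array, the black bar beside each group is the mean ± SD (n = 4), and every panel spans the same 2.2 log2 units; the stages do not overlap in any panel, with the smallest gap for Nr4a1.

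The thyroid hormone receptor genes changed in opposite directions. Thrb rose, with values of 5.83, 5.67, 6.13 and 5.64 on the pregnancy arrays and 6.40, 6.65, 6.72 and 6.75 on the lactation arrays. Thra, the other isotype, fell, with values of 7.35, 7.40, 7.30 and 7.64 on the pregnancy arrays and 7.17, 6.81, 7.04 and 7.05 on the lactation arrays. Neither gene's stages overlapped. Thrb rose from 5.82 ± 0.22 to 6.63 ± 0.16 (1.75-fold), a log2 difference of 0.81 ± 0.13 (standard error; limma adjusted p = 0.00166), and Thra fell from 7.42 ± 0.15 to 7.02 ± 0.15, a change of -0.41 ± 0.11 (standard error; limma adjusted p = 0.0233). The call of Thra ended under 5 of 19 alternatives, at adjusted p-values up to 0.127 after quantile normalization, with arrays centred on the brighter genes, and without lactation replicate 2 or pregnancy replicate 2 or 4, while that of Thrb held under all 19. Thra overlaps Nr1d1 in the genome, and the labelled targets were sense-strand DNA per the labels' protocols. The difference of Thrb minus Thra within an array, which a shift of a whole array cannot move, was -1.52, -1.72, -1.17 and -2.0 in pregnancy and -0.77, -0.17, -0.32 and -0.30 in lactation, a change of 1.22 (SE 0.218, exact two-sided permutation p = 0.0286, the smallest these arrays allow). Of 10 thyroid hormone targets, deiodinases and carriers, 4 rose and 1 fell (median 0.16). The rises include Klf9, which is counted among the glucocorticoid and mineralocorticoid receptor targets too. Me1, malic enzyme, rose by 1.98 (limma adjusted p = 4.7e-07) and Thrsp, a lipogenic factor, by 1.11 (limma adjusted p = 0.000164), and Hr, a corepressor, changed by -0.41 (limma adjusted p = 0.0472), a call lost under 10 of 19 alternatives. The deiodinase Dio1, also called higher at 0.19, lay in the background range, and its call ended under 12 of 18.

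Among the retinoic acid receptors Rarg alone was called. Its values were 6.97, 6.86, 7.01 and 7.09 on the pregnancy arrays and 6.16, 5.92, 6.25 and 6.15 on the lactation arrays, with a gap of 0.61 between the stages. The fall from 6.98 ± 0.09 to 6.12 ± 0.14 was 1.82-fold, a log2 difference of -0.86 ± 0.0987 (standard error; limma adjusted p = 0.000261). Rara was at 5.95, 6.28, 6.05 and 6.14 on the pregnancy arrays and 6.24, 6.38, 6.23 and 6.18 on the lactation arrays, overlapping, with a difference of 0.15 (95% interval -0.06 to 0.37, limma adjusted p = 0.263). It passed after quantile normalization (limma adjusted p = 0.0462) and with arrays centred on the brighter genes (limma adjusted p = 0.0236). Rarb, whose promoter carries the best known retinoic acid response element, lay in the background range at 3.88 to 3.97 in pregnancy and 3.70 to 4.11 in lactation, a difference of 0.01 (95% interval -0.17 to 0.20, limma adjusted p = 0.908). The within-array value of Rarg minus Rara was different in lactation by -1.01 (SE 0.145, exact two-sided permutation p = 0.0286). Genes that make, bind or respond to retinoic acid fell in 8 of 15 cases with none rising at an adjusted or unadjusted p under 0.05 in limma, at a median of -0.38. The transglutaminase Tgm2, a known retinoic acid target, fell by 1.59, Dhrs3, a retinal reductase, by 1.11, and the retinoic acid-binding protein Crabp2 by 0.72 (limma adjusted p = 0.00146, 0.000487 and 0.043). The call of Crabp2 ended under 12 of 19 alternatives. The degrading enzymes Cyp26a1 and Cyp26b1 had changes of 0.18 (limma adjusted p = 0.16) and 0.28 (limma adjusted p = 0.171). After quantile normalization 5 of the list were called lower, and with arrays centred on the brighter genes 6 were called lower and 4 higher.

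Retinoic acid receptors are known to act on the promoter of a member of their own family, Rarb, so the element is shown here beside the half-sites in the promoters of the called genes Rarg and Thrb. The sequences are RefSeq's for build GRCm38.p6, each 120 bases within the 250 before the annotated start. Capitals mark the matched element, and minus positions count upstream of the start. For Rarb (chr14:16575477-16575596, minus strand) the capitals at -53 to -37 are the retinoic acid response element, the half-sites GGTTCA and AGTTCA in that order with 5 bases of any kind between them, searched on both strands. For Rarg (chr15:102257653-102257772, minus strand) they are the receptor half-site AGGTCA read on the opposite strand, at -225 to -220, and for Thrb (chr14:17660718-17660837, plus strand) the same half-site at -184 to -179.
Rarb: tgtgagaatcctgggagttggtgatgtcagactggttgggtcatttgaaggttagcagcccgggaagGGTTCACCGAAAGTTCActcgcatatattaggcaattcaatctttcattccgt
Rarg: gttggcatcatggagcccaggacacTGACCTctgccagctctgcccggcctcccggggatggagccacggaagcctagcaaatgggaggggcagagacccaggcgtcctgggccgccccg
Thrb: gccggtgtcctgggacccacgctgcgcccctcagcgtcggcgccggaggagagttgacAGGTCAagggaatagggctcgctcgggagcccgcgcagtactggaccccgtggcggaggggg
The Rarb element was found in 2 of all 32851 promoter windows (0.00609%), which run from 250 bases before to 50 after a start. The AGGTCA half-site, on either strand, was in 10 of the 52 windows of the 36 receptor and coactivator genes that had a sequence (19.2%). It was in 16.3% of all windows. Of the 9 genes that held it, 2 were called, Thrb and Rarg. Pparg, Nr1d2, Rara, Nr1h4, Nr5a2, Nr6a1 and Nr0b1 held it too and were not called. The called share was 36.6% of the whole receptor and coactivator group and 25.8% of all genes. A match describes letters in the window and not binding.

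Vdr, the receptor of calcitriol, the active form of vitamin D, rose. Its values were 9.53, 9.64, 9.57 and 9.68 on the pregnancy arrays and 10.37, 10.70, 10.62 and 10.55 on the lactation arrays, and every lactation array was above every pregnancy array. Its change was the largest of the 41 genes relative to its SE. The rise from 9.61 ± 0.07 to 10.56 ± 0.14 was 1.94-fold, a log2 difference of 0.95 ± 0.0766 (standard error; limma adjusted p = 3.05e-05). Of 11 genes known as vitamin D targets or enzymes, 2 rose and 1 fell, with a median of 0.03. The mean of the list was 4.50 to 4.73 in pregnancy and 4.53 to 4.65 in lactation, at about the background mark of 4.64. Only 4 of the 11 genes remained without the dimmest 40% of genes. Atp2b1, a plasma membrane calcium pump, fell by 0.85 (limma adjusted p = 0.00198). S100g, the calcium-binding protein calbindin-D9k, rose by 0.30 (limma adjusted p = 0.0313), a call lost under 7 of 19 alternatives. Cyp2r1, a vitamin D 25-hydroxylase, rose by 0.52 (limma adjusted p = 0.00485) from a level in the background range. Cyp24a1, which inactivates calcitriol and responds strongly to it, had a change of -0.01 (limma adjusted p = 0.974). Cyp27b1, which makes calcitriol and was among the dimmest 40% of genes, had a change of 0.02 (limma adjusted p = 0.844).

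Of the NR2 orphan receptors, 3 of 9 fell and none rose in limma, against 16.1% of all genes lower and 9.73% higher. Hnf4a alone was higher at an unadjusted p under 0.05. Nr2c1, for testicular receptor TR2, fell most of the 41 genes, with values of 7.26, 7.01, 7.30 and 7.04 on the pregnancy arrays and 5.80, 5.77, 6.18 and 6.26 on the lactation arrays. The fall from 7.15 ± 0.15 to 6.0 ± 0.25 was 2.22-fold, a log2 difference of -1.15 ± 0.136 (standard error; limma adjusted p = 0.000311), and lactation replicates 1 and 2 lay lowest. Nr2c2, for the related TR4, which pairs with TR2, fell, from values of 7.76, 7.69, 7.91 and 7.95 to 7.17, 7.48, 7.66 and 7.56, at a log2 difference of -0.36 ± 0.118 (standard error; limma adjusted p = 0.0475). The call ended under 11 of 19 alternatives, at adjusted p-values up to 0.177, including quantile normalization and each one without a given array except lactation replicate 3. Nr2f6, for the COUP-TF relative EAR2, fell by 0.30 (limma adjusted p = 0.0329), from 7.10 to 7.28 in pregnancy to 6.74 to 6.98 in lactation, and its call ended under 12 of 19, up to an adjusted p of 0.274, including quantile normalization, median centring and each one without a given array except lactation replicate 3. Nr2f2, for COUP-TF II, known from stroma and vessels, was at 6.04, 6.41, 6.39 and 6.02 on the pregnancy arrays and 6.10, 5.43, 6.23 and 6.18 on the lactation arrays, with lactation replicate 2 far below the others, and had a difference of -0.23 (95% interval -0.63 to 0.18, limma adjusted p = 0.375). The fibroblast marker mean on that array was 6.21 and the endothelial mean 7.13, the lowest of the 8 arrays for both. It was also the lowest array for macrophage (6.25), basal (7.72), smooth muscle and pericyte (6.18), nerve and glial (5.69) and luminal (9.38) markers. For T cell, B and plasma cell, adipocyte and hormone-sensing luminal markers it was not. The part of any of these cell types in the Nr2f2 value was not tested. Hnf4a, of liver and gut, had values of 4.65 to 4.92 and 4.87 to 5.17, just above the background range, and had a difference of 0.23 (95% interval 0.02 to 0.44, limma adjusted p = 0.104). Nr2e1, of neural stem cells, Nr2e3, of photoreceptors, Nr2f1, for COUP-TF I, and Hnf4g lay in the background range, with changes of 0.06, 0.09, 0.03 and 0.03 (limma adjusted p = 0.671, 0.516, 0.747 and 0.686).

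Nr4a1, for NUR77, an orphan receptor induced within minutes by growth factors and stress, fell. Its values were 6.52, 6.85, 6.40 and 6.49 on the pregnancy arrays and 6.39, 5.47, 5.86 and 6.21 on the lactation arrays. The stages were separated by 0.01, since lactation replicate 1 nearly reached the lowest pregnancy array. The fall from 6.57 ± 0.20 to 5.98 ± 0.41 gave a log2 difference of -0.58 ± 0.191 (standard error; limma adjusted p = 0.0478), and its call was lost under 11 of 19 alternatives, at adjusted p-values up to 0.147, including quantile normalization and each one without a given array except lactation replicates 1 and 4. Other immediate early genes fell in 5 of 16 cases with none rising at an adjusted or unadjusted p under 0.05 in limma (median -0.21), led by Myc at -1.73 (limma adjusted p = 0.0027), Atf3 at -0.73 (limma adjusted p = 0.0211), Junb at -0.62 (limma adjusted p = 0.000733) and Btg2 at -0.53 (limma adjusted p = 0.0116), while Fos had a change of 0.01 (limma adjusted p = 0.967). The mean of these genes was 6.61, 6.83, 6.70 and 6.65 in pregnancy and 6.53, 6.25, 6.36 and 6.47 in lactation, and the arrays highest and lowest for it, pregnancy replicate 2 and lactation replicate 2, were also the highest and lowest for Nr4a1. Tissue was digested before RNA was taken at both stages, and the part of that step in these values was not tested. Nr4a2, for NURR1, had a difference of 0.13 (95% interval -0.11 to 0.38, limma adjusted p = 0.38), and Nr4a3, for NOR1, lay in the background range at 0.02 (95% interval -0.12 to 0.16, limma adjusted p = 0.854).

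**Figure D3:**
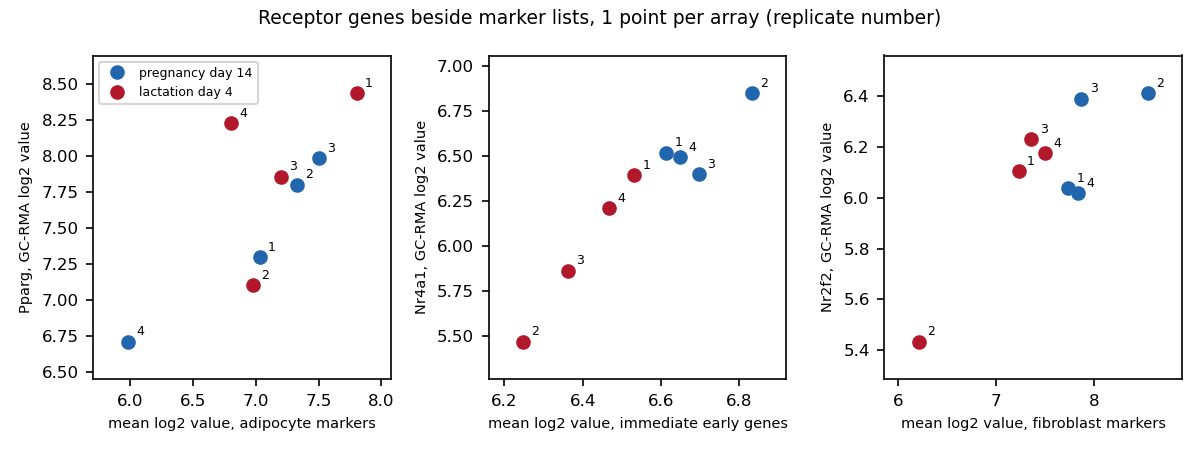
GC-RMA log2 value of Pparg, Nr4a1 and Nr2f2 (y axes) against the mean log2 value of the adipocyte markers, the immediate early genes and the fibroblast markers (x axes), 1 point per array with its replicate number, pregnancy day 14 in blue and lactation day 4 in red. Pregnancy replicate 4 is lowest for Pparg and the adipocyte markers, and lactation replicate 2 is lowest in the other panels.

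The receptors of bile acids and foreign compounds were in the background range and were not called in limma, with Nr1i2 and Nr1i3 at an unadjusted p under 0.05. Nr1h4, for the bile acid receptor FXR, had a difference of 0.04 (95% interval -0.10 to 0.19, limma adjusted p = 0.637). Nr1i2, for the pregnane X receptor PXR, was at 3.63, 3.64, 3.69 and 3.62 on the pregnancy arrays and 3.83, 3.75, 3.75 and 3.81 on the lactation arrays, without overlap, but its difference of 0.14 (95% interval 0.03 to 0.24, limma adjusted p = 0.0596) missed the threshold. Nr1i3, for CAR, had a difference of 0.16 (95% interval 0.01 to 0.31, limma adjusted p = 0.107). Among 15 of their known targets 2 were called higher and none lower in limma (5 and 2 at an unadjusted p under 0.05), against 9.73% and 16.1% of all genes. These were the hormone gene Fgf15 at 0.43 (limma adjusted p = 0.0166) and the bile salt pump Abcb11, in the background range, at 0.26 (limma adjusted p = 0.00952). The mean of the list was in the background range, at 4.10 to 4.24 in pregnancy and 4.18 to 4.25 in lactation. Only 5 of the 15 genes remained without the dimmest 40% of genes. Nr0b2, for SHP, a partner without a DNA-binding domain that FXR induces in liver, had a difference of 0.23 (95% interval 0.01 to 0.45, limma adjusted p = 0.11), and Nr0b1, for DAX1, of 0.08 (95% interval -0.13 to 0.29, limma adjusted p = 0.557). Both lay in the background range. Nr5a1, for SF-1 of adrenal gland and gonad, had a difference of 0.16 (95% interval -0.06 to 0.37, limma adjusted p = 0.252), Nr5a2, for LRH-1, in the background range, of 0.03 (95% interval -0.15 to 0.21, limma adjusted p = 0.802), and Nr6a1, for the germ cell factor GCNF, of -0.30 (95% interval -0.60 to 0.00, limma adjusted p = 0.131). Of the 26 genes not called, 21 had a 95% interval inside ±0.5 log2 units, and for the other 5 (Nr1d1, Pparg, Nr3c2, Nr2f2 and Nr6a1) it reached beyond. The 21 include the genes in the background range, for which a narrow interval does not show that the gene was unchanged. With arrays centred on their median, 5 of the FXR, PXR and CAR targets were called higher, and 12 with arrays centred on the brighter genes.

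Differences between related genes were compared within arrays for 26 pairs. The pairs were formed within 16 chosen groups of close relatives, the PGC-1 coactivators among them. The NR2 genes were split into several of these groups, and Esr2, Vdr, Nr1h4 and Nr6a1 were in none. The stages did not overlap for 10 of the pairs, each with an exact two-sided permutation p of 0.0286, the smallest that 4 arrays against 4 can give, and an adjusted p of 0.0743 over the 26 pairs, so none passed after adjustment. Besides Thrb and Thra, these were Nr3c2 relative to Nr3c1, with a lactation value differing from that of pregnancy by -1.24 (SE 0.193), Rorb relative to Rora by -1.09 (SE 0.152), Rarg relative to Rara and to Rarb by -1.01 (SE 0.145) and -0.88 (SE 0.0693), and Nr2c2 relative to Nr2c1 by 0.79 (SE 0.125). Nr4a2 and Nr4a3 relative to Nr4a1 differed by 0.72 (SE 0.175) and 0.60 (SE 0.186), Esrrg relative to Esrra by 0.68 (SE 0.217) and Nr2f6 relative to Nr2f1 by -0.33 (SE 0.0976). Pairs with a partner in the background range compare a measured change with a floor. Ppargc1b relative to Ppargc1a differed by 0.79 (SE 0.277) with overlapping arrays (exact two-sided permutation p = 0.0571), and Pparg relative to Ppara by -0.11 (SE 0.493), at an exact permutation p of 0.8.

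**Figure D4:**
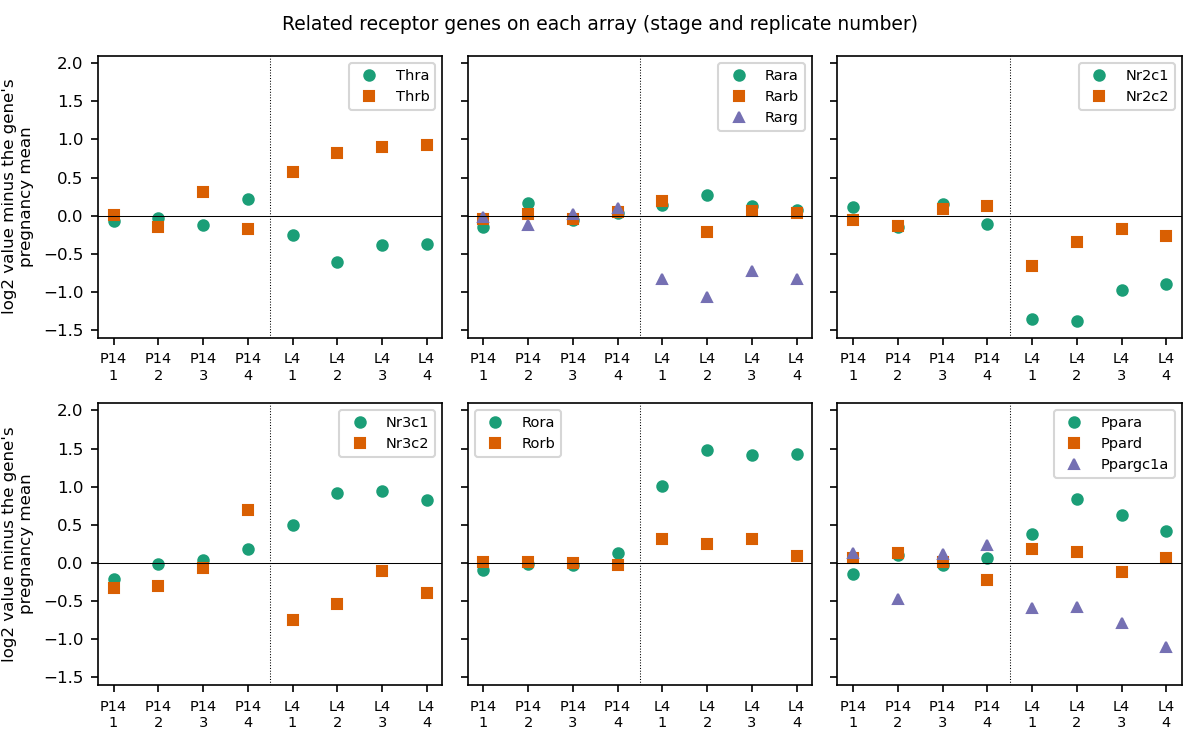
Log2 value minus the gene's own pregnancy mean (y axis) on each of the 8 arrays (x axis, stage and replicate number) for related receptor genes and for Ppara, Ppard and Ppargc1a, with 1 symbol per gene. Thrb and Thra move apart in lactation, Rarg falls while Rara and Rarb average 0.15 and 0.01, and the lactation arrays average -1.15 for Nr2c1 and -0.36 for Nr2c2.

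Cofactors that carry the receptors' signal to chromatin were lower in lactation or not called. Of 22 coactivator and corepressor genes outside the PGC-1 pair, 11 fell and none rose in limma, with 16 and 1 at an unadjusted p under 0.05, against 16.1% of all genes called lower. The median log2 fold change was -0.34, against 0.01 for all genes. All 22 remained without the dimmest 40% of genes, and the genes left had a median of -0.10, with 4227 of 15030 called lower. In that run 15 of the 22 fell and 1 rose. The arginine methyltransferase genes Prmt1 and Carm1 fell by 0.97 and 0.79, and Tbl1xr1 and Tbl1x, which exchange corepressors for coactivators, by 0.90 and 0.58 (limma adjusted p = 0.00019, 0.000292, 0.000793 and 0.00205). The count of falls was 7 without lactation replicate 1 or 4 or pregnancy replicate 3, and 6 without lactation replicate 2 or pregnancy replicate 4. With arrays centred on the brighter genes it was 5, with 2 rising. That scaling gave 3 rises and 14 falls among the PPAR alpha and delta targets, 8 and 2 among the ERR and PGC-1 targets, 6 and 3 among the glucocorticoid and mineralocorticoid receptor targets, 6 and 1 among the vitamin D genes and 5 and 0 among the clock genes. The p160 coactivator genes Ncoa1, Ncoa2 and Ncoa3 had changes of 0.08, -0.19 and -0.25 and the corepressor Ncor1 of -0.03 (limma adjusted p = 0.737, 0.151, 0.159 and 0.839). Of 10 receptor genes kept apart from the 41, 1 rose and 6 fell. Esr1, for estrogen receptor alpha, rose by 1.19 (limma adjusted p = 0.000658). Pgr, for the progesterone receptor, fell by 0.82 and the LXR alpha gene Nr1h3 by 0.65 (limma adjusted p = 0.00354 and 0.00396). Falls in this list numbered 3 after quantile normalization or centring on the reference or brighter genes, and 3 without lactation replicate 4 or pregnancy replicate 1 or 3. The dimer partner gene Rxra had a difference of 0.17 (limma adjusted p = 0.193).

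**Figure D5:**
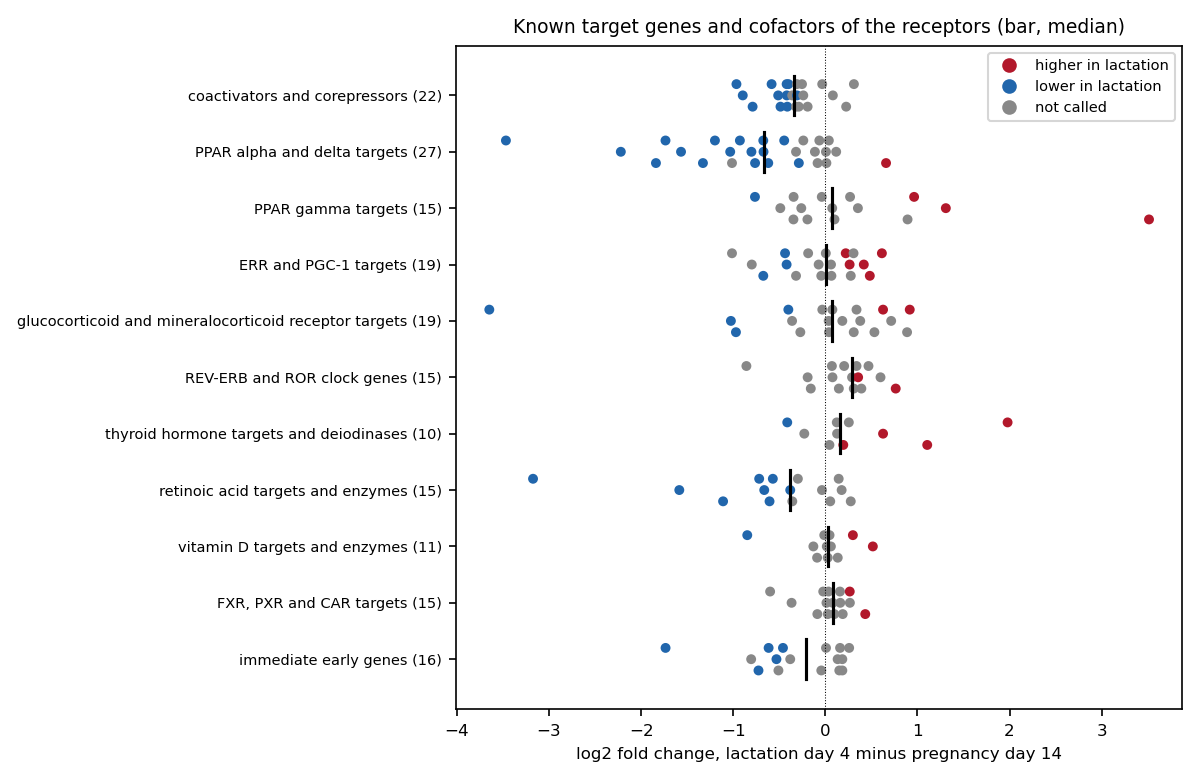
Log2 fold change, lactation day 4 minus pregnancy day 14 (x axis), of every measured gene of the target and cofactor lists (rows, with the number of genes), 1 point per gene, red for called higher, blue for called lower and grey for not called, and a black bar at the list's median. Medians lie at -0.67 for the PPAR alpha and delta targets, -0.38 for the retinoic acid list, -0.34 for the cofactors and 0.29 for the clock genes.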

How the data were processed

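RNA of 8 wild-type FVB samples was measured on Affymetrix whole-transcript arrays, 4 at each stage, with groups taken from the sample titles. The authors deposited GC-RMA values on a log2 scale, which are corrected for background by probe sequence, normalized between arrays and summarised per probe set. The tools were GCRMA and Partek, per the submitters' processing notes. Their versions and options, and the genome build, were not given in the sources used here. A second deposited table held identical values (largest difference 0). Of 35556 probe sets, 26836 carried a symbol, and names were brought up to date through RefSeq's gene table for GRCm38.p6, giving 25050 genes. For a gene with several probe sets the brightest by mean over the 8 arrays was kept, and Ppargc1a alone of the 41 genes had 2.

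The 2 stages were compared with limma 3.58.1 under R 4.3.3, using an intensity trend, no filter, no further normalization and Benjamini-Hochberg adjustment over all genes, and calls were made where the adjusted p was under 0.05. The procedure was tested on simulated data. The number of arrays limits the precision, and the median half-width of the 95% interval of a log2 fold change was 0.211 over all genes. Probe sets of near-identical genes can share signal. Alternatives covered the variance model, scaling, dim genes, choice of probe set, gene names, the replicate number and leaving out each array, and 1 scaling, on the brighter genes, was added after seeing the data.

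The 41 genes and the 24 lists of targets, cofactors, markers and reference genes (299 genes, of which Ugt1a1, Perm1, Tubb3 and Trbc2 were not found) come from textbook knowledge and were chosen with earlier results of these data known. All 41 genes are named, with up to 4 genes of each target, cofactor or receptor list by size of called change, both directions where they exist, and a few genes that this rule names are not reported here. Further list genes were named for their known role or low level after their values were seen: Klf9, Arntl, Adipoq, Fkbp5, Tsc22d3, Dio1, Cyp26a1, Cyp26b1, Cyp24a1, Cyp27b1, Fos, Ncoa1, Ncoa2, Ncoa3, Ncor1 and Rxra. Pairs of related genes were compared by exact permutation of the 8 arrays.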

Additional observations from a re-analysis of the deposited data

Results flagged for a closer look

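Among 82 groups of 4 arrays (41 genes at 2 stages), 5 held an array whose distance from the nearest other was a large part of the group's whole range by Dixon's test. Chance gives about 1 in 20 such groups, so 5 of 82 is close to what chance alone would give.

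Rora, the ROR alpha gene, stood at 8.63 on lactation replicate 1, below the other 3 lactation arrays at 9.04 to 9.11 and above all 4 pregnancy arrays. Ppargc1a, for the coactivator PGC-1 alpha, stood at 4.81 on pregnancy replicate 2, below the other 3 pregnancy arrays at 5.39 to 5.51. Ppargc1b, for PGC-1 beta, stood at 6.69 on pregnancy replicate 4, above the other 3 at 6.40 to 6.45. Nr2f2, for COUP-TF II, stood at 5.43 on lactation replicate 2, below the other 3 at 6.10 to 6.23. Nr0b2, for SHP, stood at 4.41 on lactation replicate 1, above the other 3 at 3.98 to 4.05 and within the range of the olfactory receptor genes. The calls of Rora and Ppargc1a held without these arrays, and no cause was tested.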

How the results depend on the processing

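The count of higher genes among the 41 was 6 to 8 and that of lower genes 3 to 6 when each array was left out in turn, and the count over all genes was 4415 to 6426, against 6463. Lower genes numbered 3 after quantile normalization, 4 after centring on the reference genes and 3 after centring on the brighter genes, a scaling chosen after seeing the data that gave 20 higher genes and 13180 calls over all genes. That scaling moved the median change of all genes from 0.01 to 0.19. The cause of these moves was not tested. Replicate numbers did not pair the arrays (correlations of same-numbered arrays' deviations 0.24, -0.16, 0.15 and 0.18), and a fit with the replicate number as a block gave 9 higher and 5 lower genes and 6465 calls over all genes. Under that block 1 fibroblast marker and 5 B and plasma cell markers were lower, and 3 clock genes were higher and 1 lower. Over single genes and alternatives, 53 of 764 results lost a call, 19 gained one and none of the called genes changed sign, while 11 genes that were not called did. Removing the dimmest 40% of genes took out 15 of the 41 genes, and the 13 calls among the other 26 were kept, 6 higher and 7 lower. Calls were also more common among all genes in that run, with 6161 of 15030 called, 1934 higher and 4227 lower. Values near the level of the olfactory receptor genes limit what can be said of those 15.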
